A study of Mus musculus with 6 samples.

Results

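Messenger RNA of 10 genes that mark resident macrophages was measured in the basal part of the mouse cochlea: Csf1r, Cx3cr1, Cd68, Adgre1, Mrc1, Cd163, Lyve1, F13a1, Trem2 and Itgam. The entries were found by gene symbol and are 10 of 34395 gene entries in the deposited tables. All 10 passed the filter on low counts, as did 20157 genes in all. The 6 libraries came from C57BL/6J mice, an inbred strain that loses hearing early and from the cochlear base upward. A group of 3 libraries was labelled young and a group of 3 was labelled old. Both groups share strain, tissue and preparation. The labels give no ages in weeks or months, no sex, and no word on whether a library came from 1 animal or from a pool, so that every p-value refers to the spread among libraries, which may be technical. The comparison asks how macrophage RNA of the cochlear base differs between the age groups of a strain used as a model of age-related hearing loss.

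Resident macrophages of the cochlea lie in the spiral ligament, among the fibres and cell bodies of the auditory nerve, and along the capillaries of the stria vascularis. They depend on the CSF1 receptor for survival, take up debris through scavenger receptors, and are replenished from circulating monocytes to a varying degree. None of the 10 genes is fully private to macrophages: osteoclasts and microglia transcribe Csf1r, neutrophils transcribe Itgam, platelet precursors transcribe F13a1, and lymphatic endothelium transcribes Lyve1 and Mrc1. In RNA of whole tissue, fewer macrophages, less RNA per macrophage and a different share of other cells that transcribe these genes cannot be told apart.

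The gene counts of a library added up to 37084017 to 39433584 in the young and to 26245416 to 26839068 in the old group. Counts are given as CPM, counts relative to library size after TMM scaling, which assumes that most genes do not change. With library totals alone the median log2 fold change of all genes lies 0.274 higher, and 73.9% rather than 49.7% of the changed genes are higher in old libraries, so that small decreases depend on the scaling. Xist, the RNA of the inactive X chromosome, had 384 to 515 CPM in young libraries and at most 0.302 CPM in old ones, while Y-linked Ddx3y had no count in young and 30 to 37.1 CPM in old libraries. Age group and these sex-linked profiles cannot be told apart here. The cochlear genes Coch, Otos and Kcne1 were abundant in all libraries, while Tectb had at most 0.309 CPM.

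Most of the macrophage markers were lower in the old libraries, and a single one was higher. Itgam, F13a1, Mrc1, Cd163, Adgre1 and Csf1r fell, Trem2 rose, and Lyve1, Cx3cr1 and Cd68 did not pass. These calls used edgeR's quasi-likelihood test with Benjamini-Hochberg adjustment over all tested genes, at an adjusted p under 0.05. By the same rule 27.3% of all tested genes were lower and 26.9% were higher, so that 6 of 10 lower and 1 of 10 higher stand against a background in which changes are common. The 10 markers had a median log2 fold change, old minus young, of -0.80, and all genes one of 0.01. The list of cochlear genes had the same median to 2 decimals, -0.80: of 9 tested 7 fell, among them Slc26a5 (-1.78 ± 0.24), the outer hair cell motor protein gene, Otor (-1.77 ± 0.14), Otos (-1.04 ± 0.14) and Kcne1 (-0.93 ± 0.11), while Otog (0.55 ± 0.14) rose. The fall of the markers is thus no larger in the median than that of genes of the cochlear tissue itself, and no test compared the lists. When a call also required a 1.5-fold change, 5 markers were lower and 0 higher, beside 15% and 19% of all tested genes. The groups did not overlap in CPM for 8 of the 10 markers, which compares with 62.3% of all tested genes. Summed over the 10 genes, the level was 152 to 169.9 CPM in young and 88.99 to 111.8 CPM in old libraries.

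**Figure D1:**
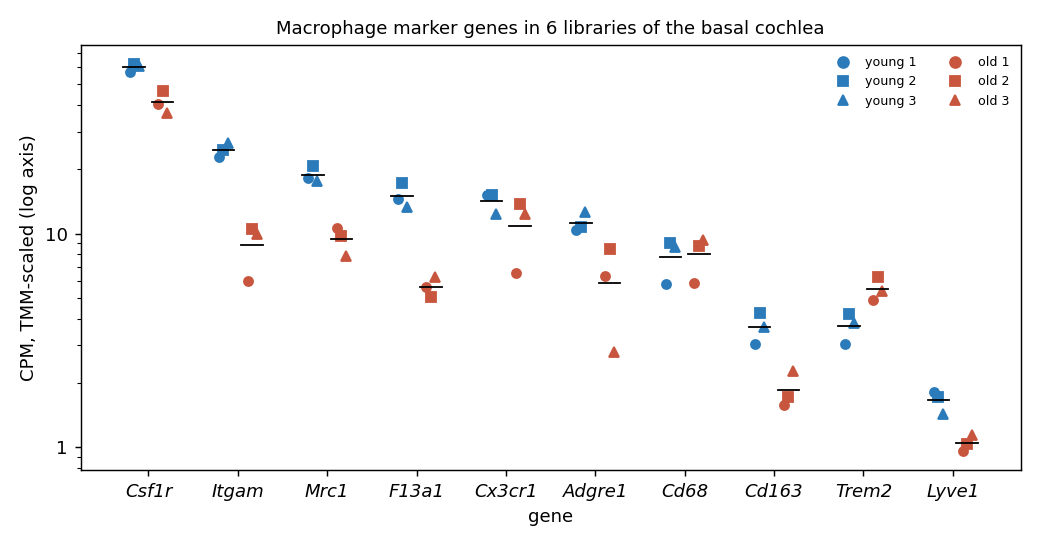
CPM of the 10 macrophage markers in each library on a log axis. Points are libraries, with shapes for library numbers within a group, and black bars are means of 3 libraries. Old libraries lie below all young ones for 7 genes and above them for Trem2, while Cx3cr1 and Cd68 overlap.

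Csf1r (gene 12978, chromosome 18, 61105572 to 61131139, GRCm38.p6) encodes the receptor for CSF1 and IL-34 on which macrophages depend. It had 57, 62.3 and 61.2 CPM in young 1, 2 and 3 and 40.6, 46.4 and 36.8 CPM in old 1, 2 and 3. Every old library was below every young one. The mean fell from 60.1 ± 2.77 to 41.3 ± 4.85 CPM (SD, n = 3 per group), a log2 fold change of -0.54 ± 0.10 (SE; edgeR adjusted p = 0.00117). With library totals alone the fall was smaller, -0.27 (edgeR adjusted p = 0.0441), and on log2(FPKM + 0.1) it did not pass (-0.26; limma adjusted p = 0.0609). In the annotation Csf1r overlaps the noncoding Gm52352, and the sources used here do not say which of the genes received reads from the common stretch. The ligand genes did not pass: the mean of Csf1 was 22.05 ± 2.21 CPM in the young group against 21.4 ± 2.6 CPM in the old, and that of Il34 was 22 ± 2.95 against 17.8 ± 2.6 CPM. Neither Csf1 (log2 fold change -0.05 ± 0.12; edgeR adjusted p = 0.763) nor Il34 (-0.30 ± 0.14; adjusted p = 0.0877) differed beyond the spread by that test. Thus the receptor passed and its ligands did not, but the difference between them was not tested.

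Itgam (gene 16409, chromosome 7, 128062640 to 128118491) encodes the alpha M integrin subunit CD11b, which pairs with the beta 2 subunit to form complement receptor 3. It had 22.9, 24.6 and 26.7 CPM in young 1, 2 and 3 and 6.01, 10.5 and 10 CPM in old 1, 2 and 3. Old 1 was the lowest, and the groups lay far apart. The fall from 24.7 ± 1.9 to 8.85 ± 2.47 CPM was 2.79-fold (log2 fold change -1.48 ± 0.19; edgeR adjusted p = 0.000153), the largest among the 10 markers. Its partner Itgb2 fell as well, from 19.6 ± 1.14 to 8.63 ± 1.83 CPM (-1.18 ± 0.16; adjusted p = 0.000206). So did C3, whose cleaved product is a ligand of that receptor, from 33.1 ± 2.19 to 7.52 ± 2.49 CPM (-2.14 ± 0.21; adjusted p = 4.2e-05). Icam1, an endothelial ligand, had a log2 fold change of -0.01 ± 0.17 and did not pass (adjusted p = 0.959). Neutrophil genes, whose cells also carry Itgam, moved with it: all 14 of 14 fell, beside 27.3% of all tested genes. Their summed level was 823.5 to 1120 CPM in young and 57.81 to 148.2 CPM in old libraries. Their part in the result was not tested.

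Cx3cr1 (gene 13051, chromosome 9, 120048683 to 120068296) encodes the receptor for fractalkine, the chemokine made by neurons and endothelium from Cx3cl1. It had 15.2, 15.1 and 12.3 CPM in young 1, 2 and 3 and 6.52, 13.8 and 12.4 CPM in old 1, 2 and 3. Old 1 was low, and old 2 and old 3 were within the young range. The log2 fold change of -0.39 ± 0.23 did not pass (edgeR adjusted p = 0.185). The ligand gene Cx3cl1 averaged 67.3 ± 8.81 CPM in the young and 60.01 ± 2.64 CPM in the old group (-0.17 ± 0.10; adjusted p = 0.195). Adam17 and Adam10, proteases that shed fractalkine and several of these receptors from the cell surface, fell by 0.65 ± 0.10 and 0.33 ± 0.07 on the log2 scale (adjusted p = 0.000612 and 0.00425). Adam17 did not pass on log2(FPKM + 0.1) (limma adjusted p = 0.144). The fall of Adam10 was lost with library totals alone (adjusted p = 0.586), and its log2 fold change was above 0 on both FPKM scales.

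Mrc1, Cd163, Lyve1 and F13a1 are used together as markers of perivascular and other long-lived tissue macrophages. Mrc1 (gene 17533, chromosome 2, 14229414 to 14332023) encodes the mannose receptor CD206. It had 18.2, 20.8 and 17.6 CPM in young 1, 2 and 3 and 10.6, 9.76 and 7.89 CPM in old 1, 2 and 3. All old values were below all young ones, and Mrc1 fell 2-fold, from 18.9 ± 1.72 to 9.42 ± 1.39 CPM (log2 fold change -1.002 ± 0.14; edgeR adjusted p = 0.000248). F13a1 (gene 74145, chromosome 13, 36867178 to 37050244) encodes the A subunit of coagulation factor XIII, the transglutaminase that cross-links fibrin. It had 14.6, 17.2 and 13.4 CPM in young 1, 2 and 3 and 5.63, 5.07 and 6.26 CPM in old 1, 2 and 3. The groups lay well apart, and F13a1 fell 2.67-fold, from 15.1 ± 1.92 to 5.65 ± 0.599 CPM (-1.41 ± 0.14; adjusted p = 5.45e-05). The genes of its partner subunit and of fibrinogen, F13b, Fga, Fgb and Fgg, were at or near 0 in all libraries and were not tested. Genes of megakaryocytes and platelets, which also hold factor XIII, moved with F13a1: all 7 of 7 fell, beside 27.3% of all tested genes. Their summed level was 46.35 to 52.58 CPM in young and 9.132 to 15.95 CPM in old libraries. Their part in the result was not tested.

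Cd163 (gene 93671, chromosome 6, 124304636 to 124330529) encodes the scavenger receptor that takes up complexes of haptoglobin and haemoglobin. It had 3.03, 4.24 and 3.65 CPM in young 1, 2 and 3 and 1.58, 1.71 and 2.28 CPM in old 1, 2 and 3. The old values were all lower, and the mean fell from 3.64 ± 0.609 to 1.86 ± 0.374 CPM (log2 fold change -0.97 ± 0.23; edgeR adjusted p = 0.00589). The deposited FPKM did not show this fall: they were 1.11, 1.16 and 1.1 in young 1, 2 and 3 and 0.58, 0.94 and 1.68 in old 1, 2 and 3, and on log2(FPKM + 0.1) the log2 fold change was -0.18 (limma adjusted p = 0.67). The transcript length implied by the counts and FPKM of Cd163 varied between libraries, from 1507 bases in old 3 to 3302 bases in young 2, whereas for Mrc1 it ran from 5076 to 5110 bases. Cd163 overlaps the noncoding Gm52877 over 9572 bases. Of the genes that act around this receptor, Hp, which encodes haptoglobin, fell from 18.7 ± 3.79 to 1.79 ± 0.526 CPM (-3.38 ± 0.23; edgeR adjusted p = 1.18e-05). Hmox1, which encodes the enzyme that breaks down haem, fell from 18.4 ± 4.83 to 10.1 ± 0.327 CPM (-0.87 ± 0.18; adjusted p = 0.00232).

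Lyve1 (gene 114332, chromosome 7, 110850607 to 110862953) encodes a hyaluronan receptor and was the weakest of the 10 markers. Its counts were 65, 61 and 47 in young 1, 2 and 3 and 28, 31 and 33 in old 1, 2 and 3, that is 1.82, 1.71 and 1.43 CPM against 0.961, 1.04 and 1.14 CPM. The old values were all below the young ones, but the log2 fold change of -0.66 ± 0.26 did not pass (edgeR adjusted p = 0.0566). Genes of hyaluronan synthases went the other way. Has1 rose from 1.19 ± 0.126 to 6.17 ± 0.746 CPM (2.37 ± 0.20; adjusted p = 2.27e-05), and Has3 rose from 3.71 ± 0.83 to 5.97 ± 0.685 CPM (0.68 ± 0.20; adjusted p = 0.0155), a call lost without young 3 (adjusted p = 0.0617) and without old 3 (adjusted p = 0.0511). Has2 was not tested for low counts. Lymphatic and sinusoidal endothelium, which shares Lyve1 and Mrc1, was measured by 5 genes with a summed level of 101.8 to 107.3 CPM in young and 95.37 to 100.5 CPM in old libraries. Of the 4 tested, Flt4 rose (0.55 ± 0.13), Stab2 (-1.46 ± 0.33) and Pdpn (-0.74 ± 0.13) fell and Prox1 did not pass, while Ccl21a had no old count.

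Adgre1 (gene 13733, chromosome 17, 57358581 to 57483529) encodes the antigen F4/80. It had 10.4, 10.8 and 12.6 CPM in young 1, 2 and 3 and 6.35, 8.46 and 2.8 CPM in old 1, 2 and 3. Old 3 was far below the other old libraries. Adgre1 fell from 11.3 ± 1.16 to 5.87 ± 2.86 CPM (log2 fold change -0.94 ± 0.30; edgeR adjusted p = 0.0233). The value was -0.61 without old 3 (adjusted p = 0.0187), and the call was lost without old 1 (adjusted p = 0.0512), with library totals alone (adjusted p = 0.0905) and on log2(FPKM + 0.1) (limma adjusted p = 0.1). Cd68 (gene 12514, chromosome 11, 69664213 to 69666170) encodes a glycoprotein of late endosomes and lysosomes. It had 5.8, 9.02 and 8.62 CPM in young 1, 2 and 3 and 5.87, 8.76 and 9.34 CPM in old 1, 2 and 3. The groups overlapped throughout, and Cd68 did not pass (0.03 ± 0.22; edgeR adjusted p = 0.907).

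Trem2 (gene 83433, chromosome 17, 48346401 to 48352276) encodes a lipid-sensing receptor of phagocytes that signals through the adaptor TYROBP and the kinase SYK. It had 3.05, 4.19 and 3.81 CPM in young 1, 2 and 3 and 4.88, 6.27 and 5.4 CPM in old 1, 2 and 3. Every old library was above every young one. Trem2 rose 1.498-fold, just short of 1.5-fold, from 3.68 ± 0.577 to 5.52 ± 0.707 CPM (log2 fold change 0.58 ± 0.19; edgeR adjusted p = 0.0228). The call was lost without young 1 (0.44; adjusted p = 0.0785), without young 3 (0.58; adjusted p = 0.0554) and without old 2 (0.47; adjusted p = 0.0891). With library totals alone the rise was larger (0.86; adjusted p = 0.00339), as it was on log2(FPKM + 0.1) (0.87; limma adjusted p = 0.00199).

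The partners of Trem2 did not move as a unit. Tyrobp had 8.54, 12.1 and 11.9 CPM in young 1, 2 and 3 and 5.53, 6.11 and 6.54 CPM in old 1, 2 and 3, and fell (log2 fold change -0.84 ± 0.17; edgeR adjusted p = 0.00189). Syk fell from 19.4 ± 1.73 to 5.99 ± 1.03 CPM (-1.70 ± 0.15; adjusted p = 2.7e-05). Both also serve other receptors of myeloid cells, and SYK also serves those of B cells. Apoe, a lipid carrier that TREM2 binds and that many cell types of the cochlea make, rose from 825 ± 134 to 1196 ± 85.8 CPM (0.54 ± 0.12; adjusted p = 0.00354). In the list of ligands, co-receptors and sheddases as a whole, 3 of 15 tested genes rose and 8 fell, beside 26.9% and 27.3% of all tested genes. On log2(FPKM + 0.1) 3 rose and 6 fell, beside 39.2% and 13.9%. Another 6 genes of the list were not tested for low counts.

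**Figure D2:**
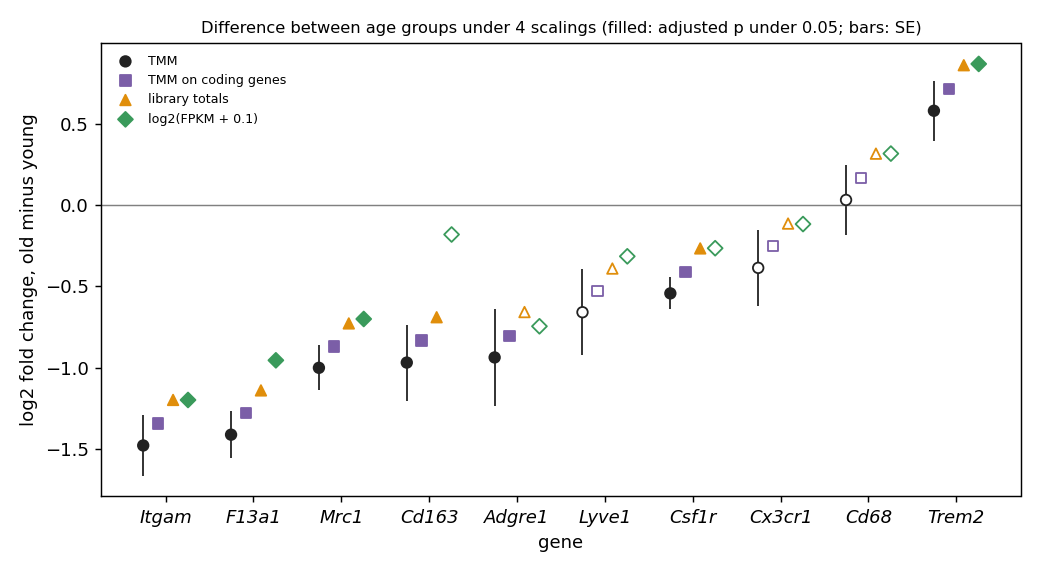
Log2 fold change of old minus young for the 10 markers with TMM, TMM computed on protein-coding genes, library totals alone and log2(FPKM + 0.1). Filled symbols have an adjusted p under 0.05 and bars are the SE of the TMM value. Itgam, F13a1 and Mrc1 lie below 0 and Trem2 lies above 0 with filled symbols in all 4, while Cd163 passes with counts and lies at -0.18 with FPKM.

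The number of markers called changed with the scaling. With library totals alone 5 of the 10 fell and 1 rose, where 14.5% of all tested genes were lower and 41% higher. On log2(FPKM + 0.1) 3 fell, Itgam (-1.20), F13a1 (-0.96) and Mrc1 (-0.70), and 1, Trem2, rose, where 13.9% of all tested genes were lower and 39.2% higher. The same 4 passed on log2(FPKM + 1), where the shares of all genes were 13.7% and 38.4%. Itgam, F13a1, Mrc1 and Trem2 thus kept both direction and call under these scalings. F13a1 overlaps noncoding genes in the annotation, and its implied length ran from 2868 bases in old 1 to 3656 bases in young 3.

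Ratios between markers of the same library are free of the scaling. The count of each marker was set against that of Csf1r, and the 9 ratios were compared with exact permutation tests, which with 3 against 3 libraries cannot go below a two-sided p of 0.1. Relative to the Csf1r count, Trem2 stood at 5.36, 6.72 and 6.23% in young 1, 2 and 3 against 12, 13.5 and 14.7% in old 1, 2 and 3. All old values were above all young ones, a 2.2-fold difference (log2 difference 1.14; exact permutation p = 0.1, adjusted p = 0.225 over the 9 ratios). Itgam stood at 40.1, 39.4 and 43.6% of Csf1r in young 1, 2 and 3 against 14.8, 22.6 and 27.3% in old 1, 2 and 3, 1.96-fold lower without overlap (log2 difference -0.97; exact permutation p = 0.1, adjusted p = 0.225). F13a1 and Mrc1 were also lower in 3 of 3 old libraries relative to Csf1r, by 1.82-fold and 1.38-fold (log2 differences -0.86 and -0.46), with the same exact permutation p-values. For Cd68 (0.58), Adgre1 (-0.53), Cd163 (-0.43), Lyve1 (-0.11) and Cx3cr1 (0.10) the log2 differences came with overlapping groups and exact permutation p-values of 0.2 to 0.8. No ratio could pass the adjusted threshold in a design of this size. The share of all genes whose ratio to Csf1r separates the groups was not computed. In CPM the groups did not overlap for 62.3% of all tested genes, so separation alone does not set these markers apart.

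**Figure D3:**
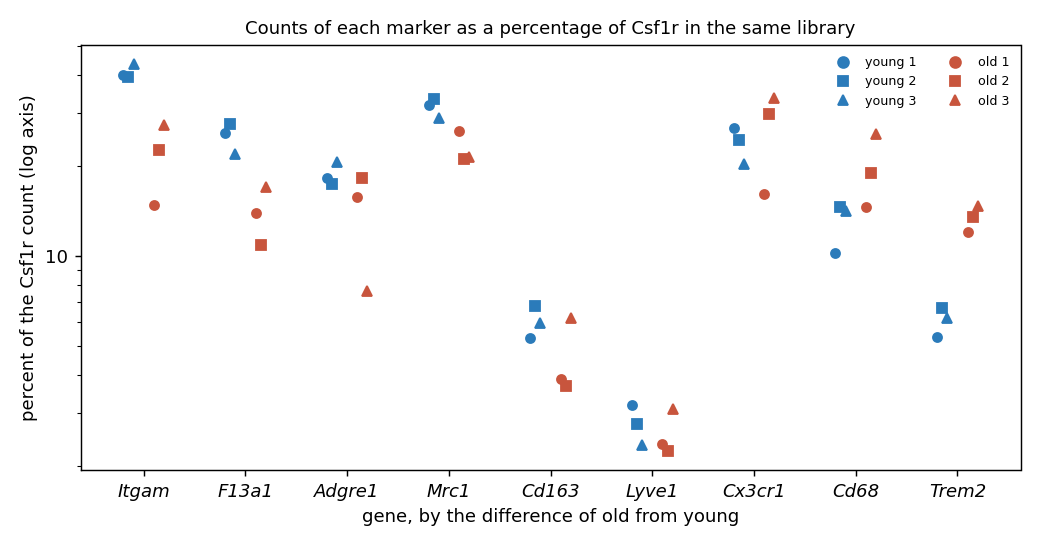
Counts of 9 markers as a percentage of the Csf1r count of the same library, on a log axis, ordered by the difference between the groups. Points are libraries. Itgam, F13a1 and Mrc1 were lower and Trem2 was higher in each old library than in any young library; the other 5 genes overlap.

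Levels of different genes were compared per length, as FPKM, the depth- and length-normalised values that the authors deposited. Csf1r led in both groups, with 14.9 ± 0.471 FPKM in young and 12.5 ± 1.54 FPKM in old libraries. Cd68 followed with 6.94 ± 1.33 and 8.74 ± 1.98 FPKM. In young libraries Itgam (5.02 ± 0.123 FPKM) came next, and Trem2, Cx3cr1, F13a1, Adgre1 and Mrc1 (3.36 to 3.79 FPKM) did not differ beyond their spread from one to the next. Cd163 (1.12 ± 0.0321 FPKM) and Lyve1 (0.633 ± 0.106 FPKM) were lowest, each apart from its neighbours. In old libraries Trem2 (7.01 ± 0.921 FPKM) came directly after Cd68, and its libraries overlapped those of Cd68. Cx3cr1, Itgam, Adgre1, Mrc1, F13a1 and Cd163 followed, each overlapping with the next, and Lyve1 was again lowest at 0.487 ± 0.0451 FPKM. Itgam exceeded Trem2 in each young library, and Trem2 exceeded Itgam in each old library.

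The stretch before the transcription start was read for 7 of the 10 genes from RefSeq promoters (GRCm38.p6), each 300 bases long, 250 before and 50 after the start. Csf1r was left out with its chromosome, and Adgre1 and Lyve1 were not read either. The letters GAGGAA, the core of the site bound by the macrophage factor PU.1, were searched on both strands, where the other strand reads TTCCTC. They occurred in 6 of 8 promoters of the 7 genes and in 28.3% of all 32851 promoters of the table. The 250 bases before the start are shown for the 3 markers that fell under every scaling and for Trem2, the one that rose, with the matched letters in capitals, 5′ to 3′ on the strand of the gene.
Itgam (chr7:128062390-128062639, plus strand): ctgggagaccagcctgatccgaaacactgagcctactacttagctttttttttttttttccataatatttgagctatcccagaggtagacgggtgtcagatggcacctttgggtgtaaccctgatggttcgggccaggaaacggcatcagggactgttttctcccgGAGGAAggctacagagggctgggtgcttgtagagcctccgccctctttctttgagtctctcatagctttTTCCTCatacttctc
F13a1 (chr13:37050245-37050494, minus strand): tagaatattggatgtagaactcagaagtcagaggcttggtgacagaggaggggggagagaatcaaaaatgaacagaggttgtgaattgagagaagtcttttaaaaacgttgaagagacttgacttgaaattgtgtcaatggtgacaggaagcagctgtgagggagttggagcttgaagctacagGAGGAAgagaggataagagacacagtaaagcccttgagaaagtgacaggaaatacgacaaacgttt
Mrc1 (chr2:14229164-14229413, plus strand): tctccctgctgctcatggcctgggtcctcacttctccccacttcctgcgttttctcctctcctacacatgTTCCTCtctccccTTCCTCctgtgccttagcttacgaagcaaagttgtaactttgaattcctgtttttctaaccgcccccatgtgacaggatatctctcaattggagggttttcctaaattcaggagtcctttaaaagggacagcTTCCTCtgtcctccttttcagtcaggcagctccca
Trem2 (chr17:48346151-48346400, plus strand): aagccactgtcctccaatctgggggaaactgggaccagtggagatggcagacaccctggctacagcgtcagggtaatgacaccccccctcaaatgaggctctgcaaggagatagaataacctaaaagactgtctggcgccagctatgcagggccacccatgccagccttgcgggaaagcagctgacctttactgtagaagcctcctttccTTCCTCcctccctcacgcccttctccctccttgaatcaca
Mrc1 has 3 matches before its start, Itgam 2, and F13a1 and Trem2 1 each. The promoters of Cd163 and Cx3cr1 have none in the window, and that of Cd68 has 1 match 225 bases before its start and 1 after it. The letters thus occurred both in genes that fell and in the gene that rose.

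Genes of lineage factors did not follow the markers as a group. Spi1, which encodes PU.1, fell from 8.61 ± 0.646 to 5.63 ± 1.19 CPM (log2 fold change -0.61 ± 0.17; edgeR adjusted p = 0.0125), a call lost with library totals alone (adjusted p = 0.133). Irf8, a partner of PU.1 in monocytes and microglia, fell from 10.6 ± 2.02 to 6 ± 1.06 CPM (-0.81 ± 0.18; adjusted p = 0.00422). Maf, a factor of differentiated macrophages that other cells also transcribe, rose by 0.33 ± 0.08 on the log2 scale (adjusted p = 0.00714). Cebpb rose most, from 16.5 ± 4.01 to 52.8 ± 7.57 CPM (1.68 ± 0.17; adjusted p = 5.59e-05), and Runx1 (0.36 ± 0.09) rose too. Cebpa (0.37 ± 0.11) rose with all libraries but not without young 2 (adjusted p = 0.0588) or old 1 (adjusted p = 0.0652). Id3 (-0.28 ± 0.10) fell, but not without young 2, young 3 or old 3 (adjusted p = 0.0572 to 0.0996) nor with library totals alone (adjusted p = 0.956). Nr1h3, a lipid-sensing nuclear receptor gene, did not pass (-0.21 ± 0.16; adjusted p = 0.296). Of 8 tested factors 4 rose and 3 fell, beside 26.9% and 27.3% of all tested genes. With library totals alone 4 rose and 1 fell, beside 41% and 14.5%. On both FPKM scales none fell.

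Other genes of macrophages in general moved like the 10 markers in part. Of 22 tested, 10 fell and 1 rose, beside 27.3% and 26.9% of all tested genes. Their median log2 fold change was -0.48, beside 0.01 for all genes. Fcgr1, a high-affinity Fc receptor gene (-1.26 ± 0.30), Cybb, which encodes the oxidase subunit of phagocytes (-1.20 ± 0.19), Cd53 (-0.94 ± 0.16) and Laptm5 (-0.93 ± 0.12) fell most. Of the genes of complement C1q, made largely by macrophages, C1qa (-0.03 ± 0.14) and C1qb (-0.08 ± 0.13), both named after their values were seen, did not pass, and C1qc rose from 22.8 ± 1.7 to 33.8 ± 6.96 CPM (0.57 ± 0.14; edgeR adjusted p = 0.00641). With library totals alone 4 of the 22 fell and 3 rose, where 14.5% of all tested genes were lower and 41% higher. With TMM computed on protein-coding genes 6 fell and 2 rose, where the shares of all genes were 20.6% and 33.7%. The falls under these 2 scalings were thus near the background, and the rises were below it.

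Lists for particular macrophage states were mixed. Beside them, 27.3% of all tested genes were lower and 26.9% higher, or 14.5% and 41% with library totals alone. Of 9 tested genes of perivascular and long-lived tissue macrophages 7 fell and none rose, led by Pf4 (-2.49 ± 0.26), which platelet precursors also transcribe, Mgl2 (-1.49 ± 0.39), Fcna (-1.45 ± 0.40) and Cbr2 (-1.10 ± 0.23). The count was 4 without young 2 and 4 with library totals alone, Mgl2 missed the threshold without young 3 (edgeR adjusted p = 0.0524) and Fcna without young 2 (adjusted p = 0.0868). Of 9 tested microglia-enriched genes Fcrls (-0.74 ± 0.14), Olfml3 (-0.69 ± 0.10) and Tmem119 (-0.57 ± 0.11) fell and 6 did not pass. Tmem119 and Olfml3 are also transcribed by bone and connective tissue cells. Of 15 genes of lipid-associated macrophages, a state that depends on TREM2 in mouse brain and fat, Apoe rose and 8 fell, among them Fabp5 (-1.23 ± 0.32), Cd63 (-1.07 ± 0.11) and Spp1 (-0.74 ± 0.09). With library totals alone 4 of them fell. Spp1, which bone and nerve cells also transcribe, did not pass on log2(FPKM + 0.1) (limma adjusted p = 0.071), and a second gene of the list rose without old 1, which made 2.

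**Figure D4:**
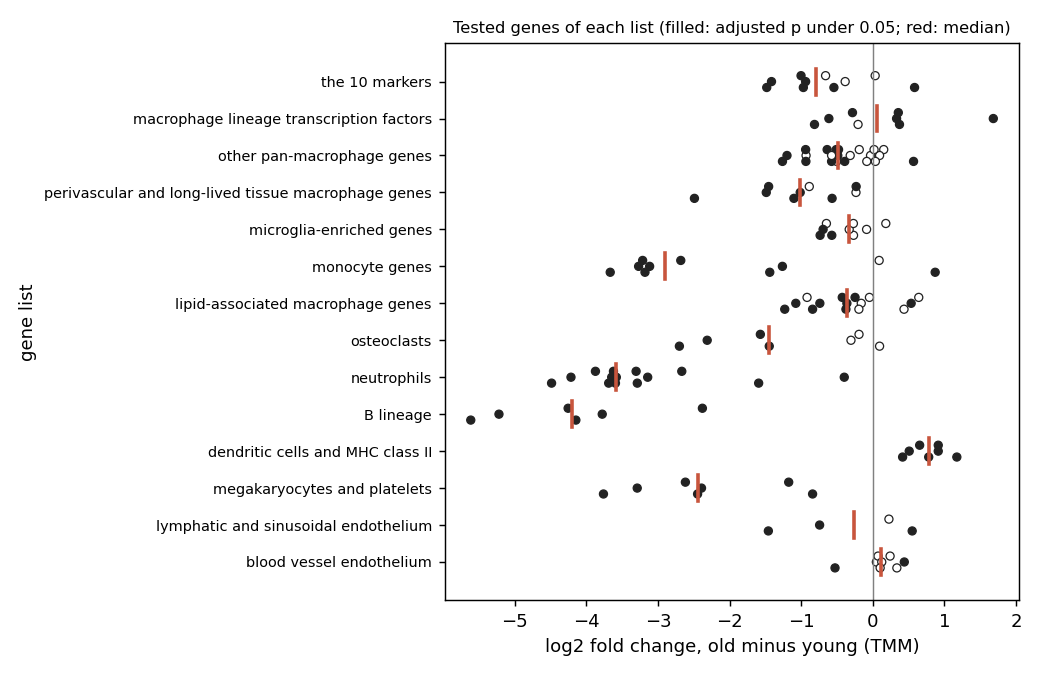
Log2 fold change of old minus young with TMM for the tested genes of each list, filled where the adjusted p was under 0.05, with the median in red. The 10 markers have a median of -0.80, those of monocytes, neutrophils, B cells and platelets lie at -2.45 or below, and the list of dendritic cells and MHC class II lies at 0.78.

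Genes of other blood and bone cells were mostly lower in old libraries, and no test compared their lists with the markers. Of 10 monocyte genes 8 fell, beside 27.3% of all tested genes, with a median log2 fold change of -2.90. Their summed level was 113.2 to 162.9 CPM in young and 26.57 to 49.31 CPM in old libraries. Plac8 (-3.67 ± 0.45), Ifitm6 (-3.27 ± 0.32), Ly6c2 (-3.21 ± 0.40) and Chil3 (-3.18 ± 0.38) fell most, and Vcan (0.87 ± 0.20), also a matrix gene of other cells, rose. The count of monocyte genes that fell was 6 without young 2 and 6 without old 1. It was also 6 with library totals alone, where 14.5% of all tested genes were lower. Of 7 tested osteoclast genes 4 fell, Mmp9 (-2.70 ± 0.20), Itgb3 (-2.31 ± 0.18), Acp5 (-1.57 ± 0.21) and Ctsk (-1.45 ± 0.14), and 3, Atp6v0d2, Nfatc1 and Tnfrsf11a, did not pass. The summed levels were 128.4 to 132.2 CPM in young and 64.82 to 78.31 CPM in old libraries. Calcr was at or near 0 throughout, and it, Ocstamp, Dcstamp and Oscar were not tested for low counts. All 6 tested B lineage genes fell, with summed levels of 10.48 to 15.9 CPM in young and 0.618 to 1.35 CPM in old libraries. Of the T and NK cell genes 2 of 4 tested fell and 2 did not pass, and of the mast cell genes Kit alone was tested and fell (-0.70 ± 0.11), which melanocytes of the stria also transcribe. These lists moved with the fall of Csf1r, Itgam and F13a1. Their part in it, and that of the amount of blood or bone tissue in each library, was not tested.

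Genes of antigen presentation went the other way from most of the markers. All 7 tested genes of dendritic cells and MHC class II rose, beside 26.9% of all tested genes, with a median log2 fold change of 0.78. The summed levels of the list were 72.69 to 93.92 CPM in young and 114.1 to 161.4 CPM in old libraries. The dendritic cell genes Xcr1, Clec9a and Cd209a were not tested for low counts. The class II genes H2-Ab1 (1.17 ± 0.27), H2-Eb1 (0.91 ± 0.23) and H2-Aa (0.78 ± 0.22) and their regulator Ciita (0.91 ± 0.26) rose most. The count was 6 with DESeq2 and 3 without young 2. H2-Aa missed the threshold without old 2 (edgeR adjusted p = 0.0612) and Ciita without young 2 (adjusted p = 0.059). Cd74 missed it without young 1, young 2 or old 2 (adjusted p = 0.0763 to 0.146), and Flt3 and Zbtb46 without young 2. Blood vessel endothelium, whose capillaries the perivascular macrophages line, had 8 tested genes, of which Pecam1 (0.44 ± 0.15) rose and Kdr (-0.53 ± 0.15) fell, with summed levels of 195.4 to 236.7 CPM in young and 210.8 to 260.9 CPM in old libraries. Pecam1 missed the threshold without young 2, young 3, old 1 or old 2 (adjusted p = 0.0766 to 0.122). With library totals alone 5 of the 8 rose and none fell, where 41% of all tested genes were higher.

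Likeness to Csf1r was measured as the root mean square difference of log2 CPM over the 6 libraries, each gene centred on its own mean, among 12656 named genes with a mean of at least 5 CPM. The profiles closest to Csf1r were those of Adhfe1 (0.02), Osgep (0.03), Timm17a (0.04), Cad (0.05) and Ccz1 (0.05), which encode enzymes, a mitochondrial import subunit and a trafficking factor. Of the markers that reached this mean, Mrc1 was the closest, at 0.26, and ranked 5194th. Trem2, Cd163 and Lyve1 were below it and were not ranked. The mean profile of the 10 markers was closest to those of Psmg2 (0.04), Tacr3 (0.04), Snf8 (0.05), Gmpr (0.05) and Dcxr (0.06). With 6 libraries in 2 groups this measure mostly reflects the size of the difference between the groups.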

How the data were processed

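RNA of the basal cochlea of young and old C57BL/6J mice was sequenced, with 3 libraries in each group as the labels give them. The authors deposited estimated counts per gene and FPKM per gene. For the aligner, the counter and the strand setting, the sources used here give nothing; GRCm38.p6 is named in the submitters' processing notes. Of the gene values, 20.2% were not whole, and counts were rounded; 8228 circular RNA entries were left out. edgeR 4.0.16 (R 4.3.3) tested old against young with filterByExpr, TMM and the quasi-likelihood test, with Benjamini-Hochberg adjustment over 20157 genes and a threshold of 0.05. Fold changes are old minus young; the SE is the fold change divided by the square root of F. FPKM were tested with limma 3.58.1 on log2(FPKM + 0.1) and log2(FPKM + 1); DESeq2 1.42.0 was an alternative. The test was also run on simulated counts with 200 changed genes, balanced in direction. Far more genes were called in the real data, so that run cannot check the scaling. Named genes are the 10 markers, any tested partner or lineage factor, and up to 4 genes per direction with the largest change among those called in each other list; other names were chosen after their values were seen. The markers and lists were chosen with earlier results of these data known. RefSeq names matched 28251 of 34395 entries. 1 further lineage factor was left out of its list and its counts and is not reported here.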

Additional observations from a re-analysis of the deposited data

How the results depend on the processing

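The number of markers lower in old libraries was 5 or 6 with each alternative on counts and 3 on both FPKM scales. The single higher marker, Trem2, was not called when calls needed a 1.5-fold change (0 higher), and the count ranged from 0 to 1 when 1 library was left out. Cd68, which did not pass, changed sign without young 1 (-0.17), old 2 (-0.04) or old 3 (-0.10), and its values with 1 library left out ran from -0.17 to 0.20. Relative to the mean of all markers in place of Csf1r, the log2 difference of Mrc1 was -0.31, and with FPKM that of Cd163 to Csf1r was 0.057. The cause was not tested. Library totals alone gave 8259 genes higher and 2920 lower, log2(FPKM + 1) gave 7740 and 2758, and log2(FPKM + 0.1) gave 7910 and 2792, against 5427 and 5496 with TMM. Same-numbered libraries showed no common deviation (correlations -0.082, 0.026 and -0.057), and unlike-numbered ones had -0.058 to 0.12. With 3 libraries per group this cannot exclude pairing, on which the labels say nothing. With the replicate block 6 markers were lower and 1 was higher, and Trem2 had a log2 fold change of 0.59 (edgeR adjusted p = 0.0257). Lyve1 was not tested where a mean count of 50 was required. Lyve1 had 28 to 65 counts per library, the fewest of the 10 markers.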
